A study of Homo sapiens with 4 samples.

Results

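The 30 transcripts described here encode the enzymes of cholesterol and fatty acid synthesis together with the proteins that sense sterol and switch the pathway on. They were taken by gene symbol from the 28482 genes of the deposited table, and all 30 were found and passed the filter on low counts. RNA came from K562/G01, a derivative of the chronic myeloid leukemia line K562 that resists imatinib, an inhibitor of the BCR-ABL1 kinase this leukemia carries. There were 4 groups with 1 library each. The first carried a lentiviral short hairpin directed at TCF7, which acts with β-catenin as a Wnt transcription factor, and received imatinib at 1 µM for 48 hours. The second carried a scramble hairpin and received the same imatinib. The third carried the TCF7 hairpin with no imatinib, and the fourth the scramble hairpin with no imatinib. Every group therefore carries a lentiviral hairpin, and the labels name a single knockdown virus. Nothing in them tells if cultures were handled apart, so a lasting difference between the cultures and an effect of the hairpin cannot be told apart.

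Cells build cholesterol from acetyl-CoA through mevalonate, farnesyl diphosphate, squalene and lanosterol. Most of the enzymes are switched on together by SREBP-2 (gene SREBF2), which leaves the endoplasmic reticulum with its escort SCAP when sterol is scarce and is held back there by INSIG1 and INSIG2 when sterol is plentiful. SREBP-1 (gene SREBF1) does the same mainly for fatty acid synthesis, in which ACACA makes malonyl-CoA, FASN makes palmitate, ELOVL6 lengthens it and the desaturases SCD, FADS1 and FADS2 add double bonds. In leukemia cells the mevalonate branch also feeds the lipid anchors of small GTPases.

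The deposited counts summed to between 30634832 and 34095585 per library. CPM levels are the counts of a gene scaled to this sum, whereas log2 ratios and fits use normalised library sizes. Because no group has a replicate, the difference between 2 libraries is given as a log2 ratio with a 95% interval that covers counting error only. Tests were made for knockdown with imatinib as a covariate and for imatinib with the hairpin as a covariate, using edgeR's quasi-likelihood test and Benjamini-Hochberg adjusted p-values over 13296 genes. "Rose" and "fell" are used for an adjusted p under 0.05. With no replicates, the error behind these p-values is the departure of the 4 libraries from additive effects. It has 1 residual degree of freedom and is moderated across genes. TCF7, the target, had 3.69 CPM in the knockdown library with imatinib, against 10.8 CPM in the scramble library with imatinib. Without imatinib it had 2.55 CPM in the knockdown library, against 10.2 CPM in the scramble library. TCF7 was low in both knockdown libraries (log2 fold change −1.75, adjusted p = 1.53e-07). All 10 markers of K562 erythroid leukemia were detected, with summed levels between 3599 and 3886 CPM. Of these 10 markers 0 passed the knockdown test (2 at an unadjusted p under 0.05, 0 in DESeq2), which 7.14% of all genes passed. With imatinib 5 rose (50%, against 13.8% of all genes) and 4 fell (40%, against 7.08%). With the offsets for GC content and length described below 1 rose (10%, against 2.13% of all genes) and 2 fell (20%, against 2.23%). The B cell, monocyte, liver and adipocyte markers summed to at most 0.47 CPM in any library, and the T cell markers to between 17.7 and 25.6 CPM. In such bulk RNA, fewer cells of a type and less RNA per cell cannot be told apart.

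Promoters are shown for the members on which the knockdown result turns and for the only one that held a sterol response element core. The letters are the 250 bases before the RefSeq start on GRCh38.p14, printed 5′ to 3′ on the gene's strand, with capitals for the motifs searched on both strands. The motifs were CCAAT (bound by NF-Y), GGGCGG (SP1), TCACNCCAC (core of the sterol response element) and CTTTGA (TCF/LEF core), and no printed base lies in more than 1 of them. FDFT1, the remaining member called for knockdown, is not shown.
ELOVL6 (chr4:110198616-110198865, minus strand): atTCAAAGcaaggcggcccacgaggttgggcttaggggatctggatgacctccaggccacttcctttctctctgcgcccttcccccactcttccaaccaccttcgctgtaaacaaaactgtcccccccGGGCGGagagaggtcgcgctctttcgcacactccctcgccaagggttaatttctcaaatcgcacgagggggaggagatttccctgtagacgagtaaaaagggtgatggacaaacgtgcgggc
SCD (chr10:100346983-100347232, plus strand): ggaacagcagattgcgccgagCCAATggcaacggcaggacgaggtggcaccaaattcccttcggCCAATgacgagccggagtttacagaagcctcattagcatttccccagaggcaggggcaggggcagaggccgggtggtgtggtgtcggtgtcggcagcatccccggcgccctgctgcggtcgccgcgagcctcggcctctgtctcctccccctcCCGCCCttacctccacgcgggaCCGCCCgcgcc
SREBF2 (chr22:41832855-41833104, plus strand): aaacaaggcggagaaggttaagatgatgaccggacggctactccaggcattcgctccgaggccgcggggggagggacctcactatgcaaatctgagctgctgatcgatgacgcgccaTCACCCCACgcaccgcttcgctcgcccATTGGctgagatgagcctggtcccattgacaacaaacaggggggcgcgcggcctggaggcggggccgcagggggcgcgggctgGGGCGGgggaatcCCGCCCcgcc
In the ELOVL6 window the TCF/LEF core lies on the opposite strand at −248 to −243 from the start and GGGCGG lies at −122 to −117. The SCD window holds CCAAT from −229 and from −186, and GGGCGG on the opposite strand from −33 and from −11. The SREBF2 window holds the sterol core, spelled TCACCCCAC, at −133 to −125, followed by CCAAT on the opposite strand from −106. RefSeq promoters were matched for 26 of the 30 members. CCAAT stood in 18 of these 26 (69.2%), against 37.0% of the 27305 genes with a promoter, and GGGCGG in 25 of 26 (96.2%), against 46.2%. The sterol core stood in 1 of 26 (3.85%), against 1.09% of genes, and the TCF/LEF core in 2 of 26 (7.69%, ELOVL6 and IDI1), against 13.5%. The larger set includes genes that these cells do not express, so these shares describe the members and were not tested. A match is a run of letters, and no match says only that these letters are absent from the window.

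Levels of different genes were compared on the deposited FPKM scale, which divides by a length per gene. SCD, the stearoyl-CoA desaturase, was the most abundant member with a mean of 132 FPKM over the 4 libraries. It was followed by HMGCS1, which joins acetyl-CoA and acetoacetyl-CoA before mevalonate, at 110 FPKM. SQLE, the epoxidase of squalene, and FASN had nearly equal means of 90.6 and 89.1 FPKM, and their order differed between libraries: FASN was higher than SQLE with imatinib and lower without it. INSIG1, IDI1 (isopentenyl diphosphate isomerase), ACAT2 (cytosolic thiolase) and FDFT1 (squalene synthase) followed with means between 45.2 and 55.3 FPKM. The factors that switch them on had means of 21.7 FPKM for SREBF2 and 6.62 FPKM for SREBF1. At the low end, FADS2 (2.09 FPKM), SC5D (2.05 FPKM), the sterol reductase TM7SF2 (1.92 FPKM) and CYP51A1 (0.414 FPKM) had the lowest means. CYP51A1, the lanosterol demethylase, had only 64 counts in the knockdown library with imatinib, 89 in the scramble library with imatinib, 28 in the untreated knockdown library and 40 in the untreated scramble library. In GENCODE 29, 79.4% of its 3584 exonic bases are overlapped on the same strand by AC000120.2 and AC000120.3, and the part of this overlap in the low count was not tested.

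**Figure D1:**
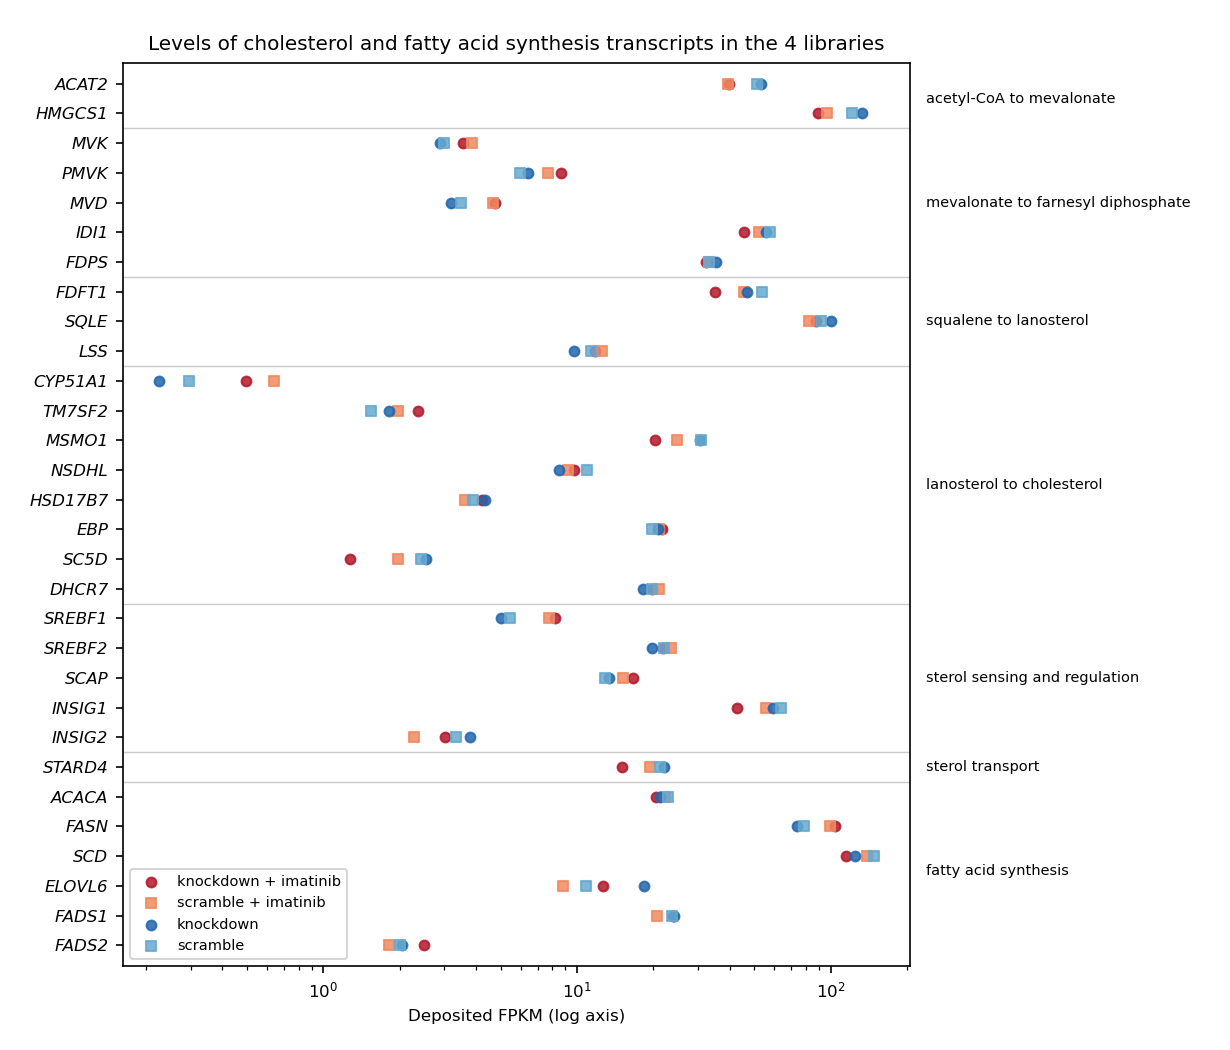
Deposited FPKM (log axis) of the 30 transcripts in the 4 libraries, 1 point per library, grouped by pathway step. Members spread from SCD, with a mean of 132 FPKM, to CYP51A1, with a mean of 0.414 FPKM, and the 4 points of most genes lie close together.

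The 30 transcripts together took 0.464% of the counts in the knockdown library with imatinib, against 0.487% in the scramble library with imatinib. Without imatinib they took 0.491% in the knockdown library, against 0.503% in the scramble library. The summed share was thus lower in the knockdown library of each pair and lower with imatinib for each hairpin, all within a narrow range.

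Knockdown of TCF7 left most of the pathway without a call. Of the 30 members 3 passed the test (7.14% of all tested genes did). ELOVL6 rose, which is 3.33% of the members against 3.8% of all genes. SCD and FDFT1 fell, which is 6.67% of the members against 3.34% of all genes. The median log2 ratio of the members was 0.00 with imatinib and 0.01 without it. Both ratios were positive for 11 members, both negative for 11, and of opposite sign for 8. The pathway as a list therefore did not shift to one side in either pair, and the changes were those of single genes.

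ELOVL6 (ENSG00000170522.9, chromosome 4, 110045846 to 110199199 on GRCh38, minus strand) encodes the elongase that takes palmitate to stearate. It had 92.3 CPM in the knockdown library with imatinib, against 64.0 CPM in the scramble library with imatinib. Without imatinib it had 134 CPM in the knockdown library, against 79.4 CPM in the scramble library. Both knockdown libraries were above both scramble libraries, although imatinib lowered the level under each hairpin. The knockdown ratio was 1.46-fold with imatinib and 1.70-fold without it. The fitted log2 fold change was 0.66 ± 0.0798 (SE; adjusted p = 2.69e-07), which ranked 51 of 13296 genes by p. DESeq2 gave an adjusted p of 1.42e-06. The window printed above lies inside the GENCODE 29 bounds of ELOVL6, which begin further upstream than the RefSeq start.

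SCD (ENSG00000099194.5, chromosome 10, 100347124 to 100364834, plus strand) makes oleate from stearate, the step after ELOVL6, and it moved the other way. It had 617 CPM in the knockdown library with imatinib, against 749.7 CPM in the scramble library with imatinib. Without imatinib it had 669 CPM in the knockdown library, against 799 CPM in the scramble library. Both knockdown libraries were below both scramble libraries. The log2 ratios of −0.26 (−0.29 to −0.23) with imatinib and −0.25 (−0.27 to −0.22) without it nearly coincided. The fitted log2 fold change was −0.25 ± 0.0690 (SE; adjusted p = 0.0172 in edgeR and 0.0398 in DESeq2). The printed SCD window runs past the start of the gene in GENCODE 29, which lies upstream of the RefSeq start.

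FDFT1 (ENSG00000079459.12), squalene synthase, commits farnesyl diphosphate to sterol. It had 182 CPM in the knockdown library with imatinib, against 236 CPM in the scramble library with imatinib. Without imatinib it had 243 CPM in the knockdown library, against 279 CPM in the scramble library. The untreated knockdown library lay above the scramble library with imatinib, so the groups overlap unless imatinib is taken into account. The log2 ratio was −0.36 (−0.41 to −0.31) with imatinib and −0.19 (−0.23 to −0.14) without it, and FDFT1 fell by 0.27 ± 0.0714 on the log2 scale (SE; adjusted p = 0.0124 in edgeR). DESeq2 did not call it, with an adjusted p of 0.0901.

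These calls rest on few libraries. When 1 library was left out and the imatinib term dropped, ELOVL6 gave log2 fold changes from 0.36, without the untreated knockdown library, to 0.91, without the knockdown library with imatinib, and passed only in that last fit. SCD gave −0.33 to −0.20 and passed in none of the 4 fits. FDFT1 gave −0.50 without the untreated knockdown library, where it passed, and −0.08 without the knockdown library with imatinib.

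The remaining steps of sterol synthesis gave no knockdown call. Among the regulators, INSIG1, the retention protein, came nearest. It had 156 CPM in the knockdown library with imatinib, against 203 CPM in the scramble library with imatinib, and 216 CPM in the untreated knockdown library, against 232 CPM in the untreated scramble library. Its log2 fold change was −0.23 ± 0.0741 (SE; adjusted p = 0.055). INSIG1 passed with DESeq2 size factors (adjusted p = 0.0407), with total counts (adjusted p = 0.0241) and with a filter at 5 CPM (adjusted p = 0.0125). It did not pass with no filter (adjusted p = 0.0973) or in DESeq2 (adjusted p = 0.348). With 1 library left out and the imatinib term dropped, the log2 fold change of INSIG1 ran from −0.48 to −0.00038. The first was without the untreated knockdown library and the second without the knockdown library with imatinib. With offsets for GC content and length INSIG1 passed (−0.23, adjusted p = 0.00243), which made 4 members called (12.3% of all genes in that fit), 1 higher (6.77% of all genes) and 3 lower (5.57% of all genes). SREBF1 had a log2 fold change of 0.00 (adjusted p = 0.998), SREBF2 of −0.12 (adjusted p = 0.385) and SCAP of 0.10 (adjusted p = 0.521). SQLE, next to FDFT1 in the pathway, had positive log2 ratios of 0.11 with imatinib and 0.15 without it, and did not pass (adjusted p = 0.295). LSS, which closes squalene epoxide to lanosterol, had ratios of −0.07 and −0.23 (adjusted p = 0.326). FASN, the most counted member, had a log2 fold change of −0.00 (adjusted p = 0.982), and ACACA of −0.09 (adjusted p = 0.509).

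**Figure D2:**
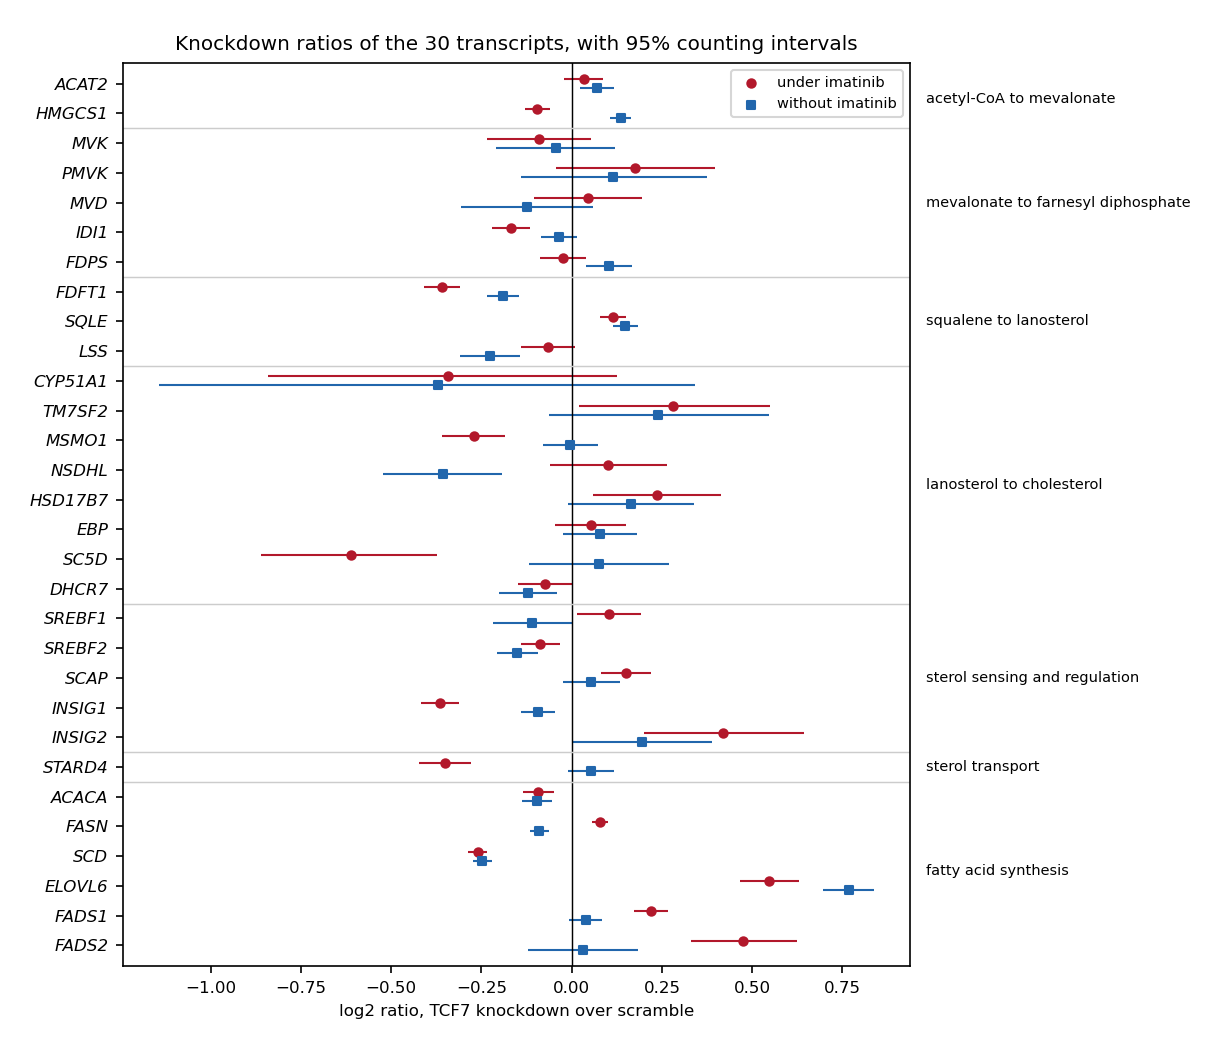
Log2 ratio of knockdown over scramble for the 30 transcripts, with imatinib and without it; bars are 95% counting intervals. ELOVL6 stands to the right in both pairs (0.55 with imatinib and 0.77 without), while SCD and FDFT1 lie left of 0 in both.

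Several members had different knockdown ratios with imatinib and without it. This difference could not be tested because it is the single residual degree of freedom. The knockdown ratio with imatinib also followed GC content. Spearman's rho was 0.37 over 10095 genes with a mean of at least 5 CPM and 0.41 over the 30 members. Without imatinib rho was −0.11 and −0.21. The part of this trend in the differences was not tested. SC5D, the lathosterol desaturase near the end of the pathway, had 7.09 CPM in the knockdown library with imatinib, against 10.998 CPM in the scramble library with imatinib. Without imatinib it had 14.1 CPM in the knockdown library, against 13.5 CPM in the scramble library. Its log2 ratio was −0.61 (−0.86 to −0.37) with imatinib and 0.08 (−0.12 to 0.27) without it, a difference of −0.69. The knockdown library with imatinib was the lowest of the 4. STARD4, which carries cholesterol between membranes, had ratios of −0.35 (−0.42 to −0.28) with imatinib and 0.05 (−0.01 to 0.12) without it. MSMO1, the C4 sterol oxidase, had ratios of −0.27 (−0.36 to −0.18) and −0.00 (−0.08 to 0.07) in the same order. FADS2, the Δ6 desaturase, ran the other way, with 0.47 (0.33 to 0.62) with imatinib and 0.03 (−0.12 to 0.18) without it. HMGCS1 had −0.09 with imatinib and 0.14 without it, and FASN had 0.08 with imatinib and −0.09 without it, so their signs crossed. With the trend over GC content and length removed from each ratio, SC5D had −0.55 with imatinib and 0.03 without it. In the same order STARD4 then had −0.23 and 0.04, MSMO1 −0.21 and −0.05, and FADS2 0.40 and 0.09.

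Of 33 other genes listed for sterol and fatty acid enzymes and uptake, 28 were tested: 0 rose and 6 fell with knockdown (21.4%, against 3.34% of all genes that fell). DESeq2 called 2 of the 28, and 272 genes in all. With the offsets 1 rose (3.57%, against 6.77% of all genes) and 8 fell (28.6%, against 5.57%) in edgeR. ME1, the cytosolic malic enzyme that supplies NADPH, had 81.6 CPM in the knockdown library with imatinib, against 120.6 CPM in the scramble library with imatinib. Without imatinib it had 83.5 CPM in the knockdown library, against 137 CPM in the scramble library. ME1 was low in both knockdown libraries (log2 fold change −0.63, adjusted p = 3.58e-07). ACSS2, which makes cytosolic acetyl-CoA from acetate, had log2 ratios of −0.53 with imatinib and −0.67 without it (adjusted p = 0.000115). LPIN1, a phosphatidate phosphatase, had −0.37 and −0.25 (adjusted p = 0.00904), and ACAT1, the mitochondrial thiolase, −0.42 and −0.24 (adjusted p = 0.00568). ELOVL7, an elongase of long-chain acyl-CoA, had −0.83 with imatinib and −0.58 without it (adjusted p = 0.00705), opposite in sign to ELOVL6. HACD1, a dehydratase of the same elongation cycle, had −1.13 and −1.84 (adjusted p = 0.0134). It had 0.630 CPM in the knockdown library with imatinib, against 1.47 CPM in the scramble library with imatinib. Without imatinib it had 0.685 CPM in the knockdown library, against 2.62 CPM in the scramble library. HACD1 thus passed the filter only through the scramble libraries, where it was high, and its call among the 6 carries this limit. In fatty acid synthesis ELOVL6 was thus higher with knockdown, while SCD, ME1, ACSS2 and ELOVL7 were lower. TECR, a reductase of the elongation cycle, had positive ratios of 0.24 with imatinib and 0.25 without it. It did not pass (adjusted p = 0.055), but was the 1 that rose with the offsets (adjusted p = 0.0113). HACD2 and HACD3 had log2 fold changes of −0.08 and 0.07 and did not pass. Of 10 proteins of SREBP processing and sterol-regulated degradation 0 passed the edgeR test, which 7.14% of all genes passed (2 at an unadjusted p under 0.05, 0 in DESeq2). Of 11 genes of fatty acid oxidation 0 also passed it (3 at an unadjusted p under 0.05, 0 in DESeq2), and with the offsets 1 rose (9.09%, against 6.77% of all genes). Among 9 genes of efflux and storage 2 rose with knockdown (22.2%, against 3.8% of all genes). APOE, the apolipoprotein that takes up lipid from cells, had 95.3 CPM in the knockdown library with imatinib, against 51.4 CPM in the scramble library with imatinib. Without imatinib APOE had 56.7 CPM in the knockdown library, against 38.6 CPM in the scramble library. It was higher in the knockdown library of each pair (log2 fold change 0.74, adjusted p = 3.58e-07), but with the imatinib term dropped it passed only without the untreated knockdown library (1.08), and had 0.34 without the knockdown library with imatinib. NCEH1, a cholesterol ester hydrolase, had ratios of 0.45 with imatinib and 0.56 without it (adjusted p = 0.0294).

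Imatinib divided the members into a larger set that fell and a smaller one that rose. Of the 30 members 15 passed the test (20.9% of all genes did): 10 fell (33.3%, against 7.08% of all genes) and 5 rose (16.7%, against 13.8% of all genes). Those that fell were HMGCS1, ACAT2, IDI1, FDFT1, MSMO1, SC5D, INSIG1, INSIG2, STARD4 and ELOVL6. Those that rose were MVD, CYP51A1, SREBF1, SCAP and FASN. Both imatinib ratios were positive for 12 members, both negative for 16 and opposite for 2. The division followed base composition. The median GC content of the longest transcript was 40.6% for the members that fell, 62.8% for those that rose and 56.0% for those not called. Of the 16 members with at least 50% GC 4 rose and 1 fell, and of the 14 below it 1 rose and 9 fell.

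This dependence was common to all genes. Spearman's rho between GC content and the imatinib log2 ratio was 0.81 in knockdown cells and 0.69 in scramble cells over the 30 members. Over 10095 genes with a mean of at least 5 CPM it was 0.75 in knockdown cells and 0.68 in scramble cells. Genes within a library share its depth and base composition, so these are descriptions. Whether the trend comes from the treatment or from the libraries cannot be told apart with 1 library per group. For the members called in either way, values are therefore given also from a fit in which a smooth trend over GC content and length entered as offsets per library. In that fit 9 members passed (4.36% of all genes did), of which 8 fell (26.7%, against 2.23% of all genes) and 1 rose (3.33%, against 2.13%). The 8 were HMGCS1, ACAT2, FDFT1, MSMO1, SC5D, INSIG1, ELOVL6 and FDPS, and the 1 was CYP51A1, with the low counts and overlap given above. DESeq2 without offsets also called 9 members, 7 lower and 2 higher, and 1003 genes in all, 241 lower and 762 higher. When 1 library was left out and the hairpin term dropped, 9 members passed without the scramble library with imatinib, and 0 passed without each of the other libraries.

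**Figure D3:**
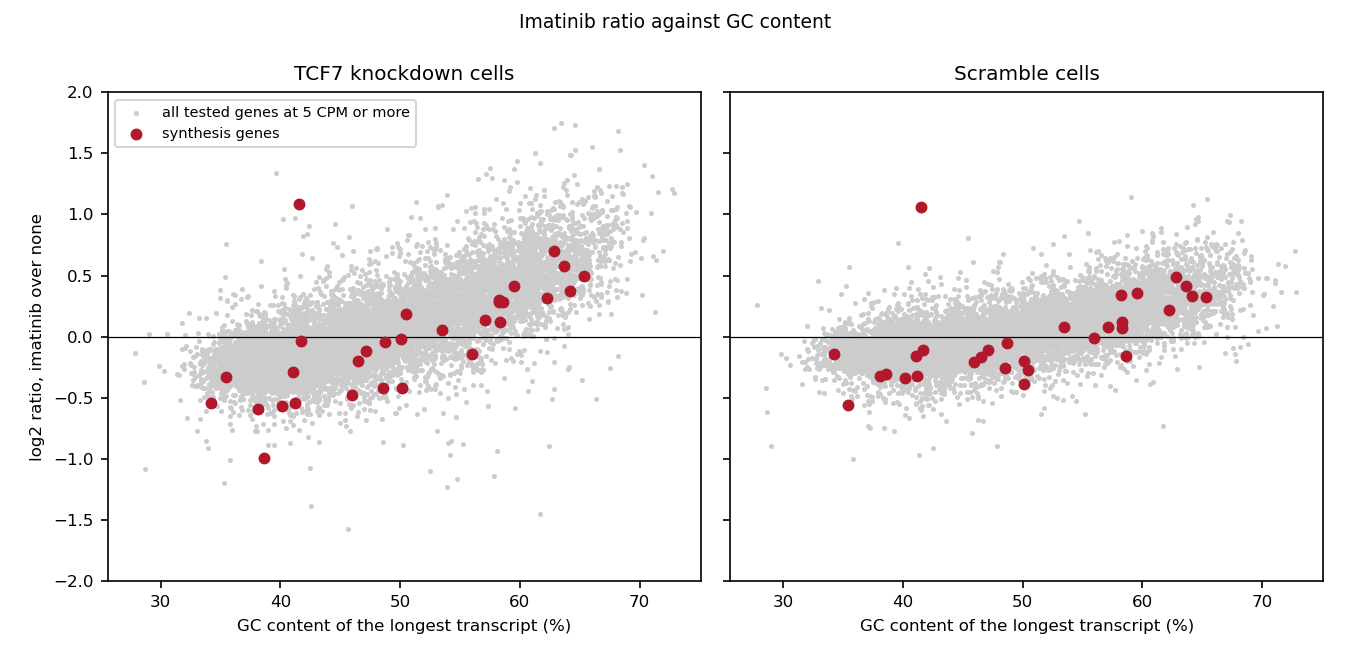
Log2 ratio of imatinib over none against the GC content of the longest transcript, for all tested genes with a mean of at least 5 CPM and for the 30 members, in knockdown and scramble cells (values beyond −2 or 2 are not drawn). The members as a set rise from low to high GC content as all genes do, but single members depart from this trend. CYP51A1 stands above it. ACAT2, at 50.2% GC, had −0.42 in knockdown and −0.39 in scramble cells, and 8 members fell in the fit with offsets for GC content and length. Spearman's rho over all 30 members, CYP51A1 included, was 0.81 in knockdown cells and 0.69 in scramble cells.

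At the entry to the pathway both members fell. HMGCS1 (ENSG00000112972.14, chromosome 5, 43289395 to 43313512, minus strand) had 420 CPM in the knockdown library with imatinib, against 623 CPM in the untreated knockdown library. In scramble cells it had 455 CPM with imatinib, against 571 CPM without it. Both imatinib libraries were below both untreated ones. The ratio was 0.673-fold in knockdown cells and 0.789-fold in scramble cells, with a fitted log2 fold change of −0.46 ± 0.0716 (SE; adjusted p = 2.34e-05). With the offsets it was −0.31 (adjusted p = 6.04e-05). ACAT2 had 171 CPM with imatinib and 229 CPM without it in knockdown cells, and 169.8 CPM with imatinib and 219.8 CPM without it in scramble cells. ACAT2 fell by 0.41 ± 0.0706 on the log2 scale (SE; adjusted p = 9.68e-05), and with the offsets by 0.47 (adjusted p = 1.95e-11). Exons of TCP1, SOD2 and SOD2-OT1 on the opposite strand overlap 52.3% of its exonic bases, and the strand setting of the counting is not given in the sources used here.

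From mevalonate to farnesyl diphosphate the picture was mixed. MVK (mevalonate kinase) and PMVK (phosphomevalonate kinase) had log2 fold changes of 0.32 (adjusted p = 0.052) and 0.39 (adjusted p = 0.0961), which were 0.02 and 0.06 with the offsets. MVD, the decarboxylase that follows, rose by 0.50 (adjusted p = 0.00515), and with the offsets had 0.00 (adjusted p = 0.997). IDI1 fell by 0.22 (adjusted p = 0.0248), and with the offsets had −0.09 (adjusted p = 0.492). FDPS, farnesyl diphosphate synthase, had −0.08 (adjusted p = 0.501) and with the offsets fell by 0.30 (adjusted p = 0.0003). The calls for MVD, IDI1 and FDPS thus depend on whether base composition is modelled.

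Squalene synthase and the late sterol enzymes divided again. FDFT1 had log2 ratios of −0.42 (−0.47 to −0.37) in knockdown cells and −0.25 (−0.30 to −0.21) in scramble cells. It fell by 0.34 in the fit (adjusted p = 0.000871) and by 0.36 with the offsets (adjusted p = 1.22e-06). Among the late enzymes, MSMO1 had 58.7 CPM with imatinib and 88.2 CPM without it in knockdown cells, and 71.9 CPM with imatinib and 89.0 CPM without it in scramble cells. Both imatinib libraries were low (log2 fold change −0.46, adjusted p = 0.000178; with the offsets −0.29, adjusted p = 0.00229). SC5D was at 0.502-fold in knockdown cells and 0.808-fold in scramble cells, with a fitted log2 fold change of −0.64 ± 0.166 (SE; adjusted p = 0.00549; with the offsets −0.48, adjusted p = 0.0296). CYP51A1, at the counts given above, had log2 ratios of 1.09 (0.48 to 1.83) in knockdown cells and 1.06 (0.54 to 1.67) in scramble cells (adjusted p = 0.0283; with the offsets 1.24, adjusted p = 0.0283). It moved opposite to MSMO1, although both act between lanosterol and zymosterol. Other genes overlap 79.4% of the exonic bases of CYP51A1 on the same strand, and the part of this overlap in the difference was not tested. SQLE (−0.18, adjusted p = 0.0559), LSS (0.20, adjusted p = 0.0728), TM7SF2 (0.36, adjusted p = 0.197), NSDHL (−0.05, adjusted p = 0.837), HSD17B7 (−0.08, adjusted p = 0.73), EBP (0.06, adjusted p = 0.651) and DHCR7 (0.09, adjusted p = 0.432) did not pass. NSDHL and HSD17B7 remove the C4 methyl groups together with MSMO1, EBP shifts a double bond of the ring and DHCR7 is the final reductase.

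Among the regulators, INSIG1 had 156 CPM with imatinib and 216 CPM without it in knockdown cells, and 203 CPM with imatinib and 232 CPM without it in scramble cells. INSIG1 fell by 0.34 (adjusted p = 0.00112), and with the offsets by 0.30 (adjusted p = 9.63e-05). INSIG2 fell by 0.45 (adjusted p = 0.0327) and STARD4 by 0.34 (adjusted p = 0.00292), and with the offsets they had −0.26 (adjusted p = 0.331) and −0.16 (adjusted p = 0.155). SREBF1 had 66.0 CPM with imatinib and 40.4 CPM without it in knockdown cells, and 62.3 CPM with imatinib and 43.9 CPM without it in scramble cells. It was higher in both imatinib libraries, at 1.63-fold in knockdown cells and 1.40-fold in scramble cells (log2 fold change 0.60 ± 0.0910, SE, adjusted p = 1.64e-05). With the offsets SREBF1 had 0.13 (adjusted p = 0.407). SCAP rose by 0.27 (adjusted p = 0.0126), and with the offsets had the opposite sign, −0.18 (adjusted p = 0.115). SREBF2 had 0.11 (adjusted p = 0.295) and with the offsets −0.15.

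In the fatty acid arm, FASN had 974 CPM with imatinib and 690.2 CPM without it in knockdown cells, and 935 CPM with imatinib and 738.5 CPM without it in scramble cells. FASN rose by 0.41 (adjusted p = 8.77e-05), but at 65.3% GC it is the most GC-rich member, and with the offsets it had −0.14 (adjusted p = 0.236). ELOVL6 fell by 0.44 (adjusted p = 0.000168), and with the offsets by 0.30 (adjusted p = 0.000539). SCD (−0.11, adjusted p = 0.248), ACACA (−0.05, adjusted p = 0.658), FADS1 (−0.11, adjusted p = 0.27) and FADS2 (0.06, adjusted p = 0.756) did not pass. ELOVL6 was thus called in both comparisons, higher with knockdown and lower with imatinib.

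**Figure D4:**
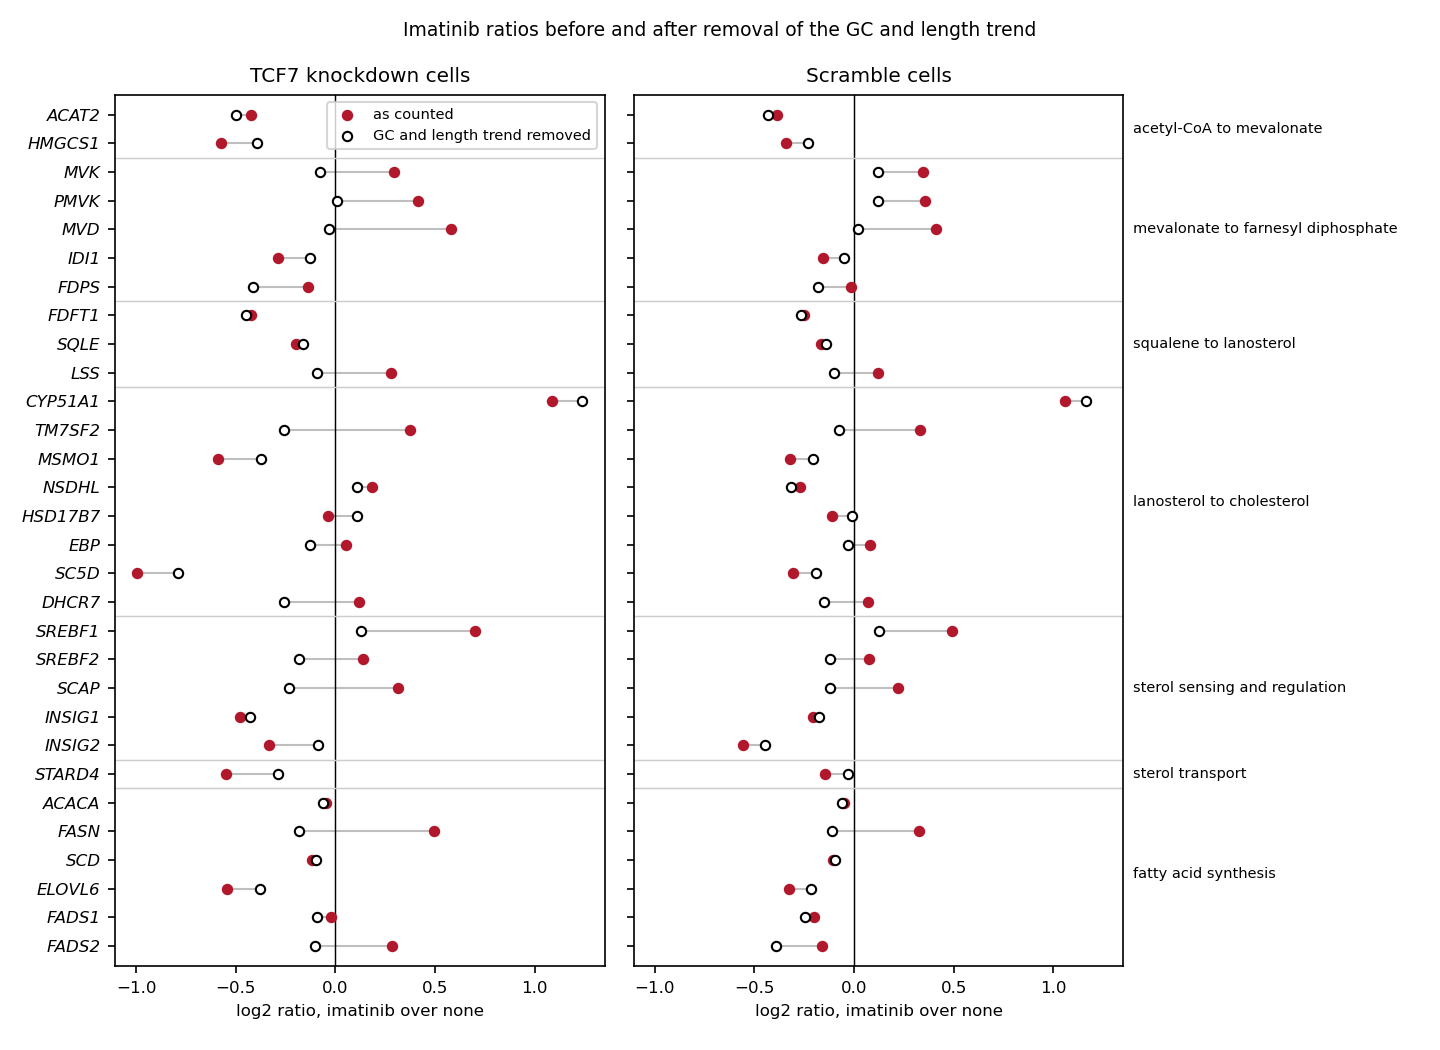
Log2 ratio of imatinib over none for the 30 transcripts in knockdown and scramble cells, as measured and after removal of the GC and length trend from each ratio. FASN and SREBF1 lie right of 0 as measured; after removal FASN lies left of 0 (−0.18 in knockdown and −0.11 in scramble cells), SREBF1 stays right of it (0.13 in both), and HMGCS1, ACAT2 and FDFT1 lie left of 0 in both panels.

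The median log2 ratio of the members for imatinib was −0.03 in knockdown cells and −0.11 in scramble cells. After removal of the trend it was −0.15 in knockdown cells and −0.12 in scramble cells, where the median of all genes with the trend removed was 0.00 in knockdown cells and −0.01 in scramble cells. Of the 28 other enzymes tested, 5 rose (17.9%, against 13.8% of all genes) and 2 fell (7.14%, against 7.08%) with imatinib. With the offsets 2 rose (7.14%, against 2.13% of all genes) and 1 fell (3.57%, against 2.23%). The 2 that rose with the offsets were STARD3, a late endosomal sterol carrier (0.37, adjusted p = 0.00247), and TECR, the last reductase of chain elongation (0.28, adjusted p = 0.00283). MCAT, FADS3 and HSD17B12 were called without the offsets, at 0.57, 0.32 and −0.28, and had 0.21, 0.10 and −0.11 with them. Of the 10 SREBP processing genes 0 passed the edgeR test for imatinib, which 20.9% of all genes passed (1 at an unadjusted p under 0.05, 0 in DESeq2). With the offsets 1 of the 10 rose (10%, against 2.13% of all genes), which was ERLIN2, an endoplasmic reticulum scaffold (0.24, adjusted p = 0.0319). Of 9 efflux and storage genes 3 rose (33.3%, against 13.8% of all genes) and 1 fell (11.1%, against 7.08%). Those that rose were APOE (0.58, adjusted p = 2.54e-05) and the LXR and RXR receptors NR1H2 (0.54) and RXRA (0.36), and SOAT1, which esterifies cholesterol, fell by 0.28. With the offsets these had −0.07 (APOE), 0.15 (NR1H2), −0.02 (RXRA) and −0.13 (SOAT1). With the offsets 0 of these 9 passed in edgeR, against 4.36% of all genes (1 at an unadjusted p under 0.05), and DESeq2 without them called 1. Of 11 oxidation genes 1 rose (9.09%, against 13.8% of all genes). It was ACADVL, a mitochondrial acyl-CoA dehydrogenase (0.41, adjusted p = 0.000451), which had 0.09 with the offsets. With the offsets 1 of the 11 fell (9.09%, against 2.23% of all genes). It was ECHS1, an enoyl-CoA hydratase (−0.39, adjusted p = 0.000102), which had −0.03 without them.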

How the data were processed

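Libraries were made with a directional kit from 3 µg of RNA freed of rRNA, per the labels' protocols. The submitters' processing notes name FastQC, HISAT2, HTSeq 0.6.1 and GRCh38. The sources used here give neither the annotation release nor the strand setting of the counting. The authors deposited 1 table of 28482 genes with whole-number read counts, FPKM values and log2 of 1 plus FPKM per library, per the file headers; the log2 columns were not used. The FPKM columns, as deposited by the authors, were handled as a score because 6 genes, none of them members, have negative values.

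Genes with at least 1 CPM in at least 2 libraries were tested on the deposited counts in R 4.3.3 with edgeR 4.0.16: TMM factors, quasi-likelihood test, additive design of knockdown and imatinib over 4 libraries, Benjamini-Hochberg adjustment over 13296 genes. The 1 residual degree of freedom is the interaction, and 33.7 prior degrees of freedom were shared across genes. Pair ratios are log2 of TMM CPM with a prior count of 2 and exact binomial 95% intervals; reads are not independent molecules, so these cover counting error only. Trends over GC content and length (longest transcript in GENCODE 29, 13255 tested genes) were fitted with mgcv 1.9.3. Alternatives were DESeq2 size factors, total counts, other filters, GC and length offsets, DESeq2 1.42.0, 1 factor only, and each library left out. Promoters are from RefSeq, GRCh38.p14; ACAT2, FASN, FDFT1 and SQLE were not matched.

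The members and lists were chosen with earlier results of these data known. The text names all 30 members, TCF7 and up to 6 called genes of each other list, by smallest adjusted p in each comparison; 1 gene that this rule names is not reported here. ERLIN2, ECHS1, HACD2, HACD3, the knockdown values of TECR and the promoter of SREBF2 were added after their values were seen.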

Additional observations from a re-analysis of the deposited data

Results flagged for a closer look

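In 4 members the 2 ratios of one comparison had opposite signs, with both counting intervals leaving out 0, and the difference itself was not tested for any of them. HMGCS1 had a log2 ratio of knockdown over scramble of −0.095 with imatinib and 0.14 without it. FASN had 0.079 with imatinib and −0.089 without it for the same comparison. NSDHL, a C4 decarboxylating sterol dehydrogenase, had a log2 ratio of imatinib over none of 0.19 in knockdown cells and −0.27 in scramble cells; its untreated scramble library was the highest of the 4, at 21.9 CPM, and its untreated knockdown library the lowest, at 17.0 CPM. FADS2 had 0.28 in knockdown cells and −0.16 in scramble cells for imatinib over none. With the trend over GC content and length removed, NSDHL kept opposite signs (0.11 in knockdown and −0.31 in scramble cells), whereas FADS2 had −0.10 and −0.39. For knockdown over scramble, HMGCS1 then had −0.039 with imatinib and 0.11 without it. FASN then had −0.025 with imatinib and 0.068 without it, the reverse of its signs before removal. With 1 library per group these differences have no replicate check.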

How the results depend on the processing

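No paired analysis was possible because each group has 1 library and the labels carry no replicate numbers. With GC and length offsets 1635 genes were called for knockdown (949 without) and 578 for imatinib (2780 without), and members called for imatinib were 9 instead of 15. DESeq2 called 272 genes for knockdown (128 higher, 144 lower), 1003 for imatinib (762 higher, 241 lower) and 9 members for imatinib. Without the other factor edgeR called 0 genes and 0 members in either comparison, with 818 genes and 2 members for knockdown and 2651 genes and 14 members for imatinib at an unadjusted p under 0.05. That fit counts the other factor's effect as error. Leaving out 1 library, which also drops the other factor, gave 24 to 746 genes and 0 to 3 members for knockdown, and 0 to 848 genes and 0 to 9 members for imatinib; only without the scramble library with imatinib were genes called for imatinib. The median imatinib ratio in knockdown cells was −0.15 with the trend removed.

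Signs turned as follows. For knockdown, SREBF1 had −0.0040 with DESeq2 size factors, −0.014 with total counts, −0.017 at 5 CPM, −0.025 with offsets and −0.0053 in DESeq2; FDPS had −0.013 and FASN 0.014 with offsets, and FASN 0.0067 without the other factor. For imatinib with offsets, LSS had −0.099, TM7SF2 −0.16, HSD17B7 0.047, EBP −0.078, DHCR7 −0.21, SREBF2 −0.15, SCAP −0.18, FASN −0.14, FADS2 −0.25, RXRA −0.018 and APOE −0.069. Leaving out 1 library turned the sign for knockdown in HMGCS1 (−0.29 to 0.29), MVK (−0.24 to 0.11), PMVK (−0.083 to 0.34), MVD (−0.35 to 0.22), IDI1 (−0.26 to 0.034), FDPS (−0.042 to 0.10), CYP51A1 (−1.05 to 0.29), MSMO1 (−0.45 to 0.14), NSDHL (−0.26 to 0.0095), SC5D (−0.79 to 0.22), ACAT2 (−0.18 to 0.26), SREBF1 (−0.38 to 0.31), SCAP (−0.068 to 0.24), STARD4 (−0.44 to 0.12) and FASN (−0.27 to 0.22). For imatinib it did so in TCF7 (−0.79 to 1.49), NSDHL (−0.22 to 0.14), HSD17B7 (−0.18 to 0.042), SCD (−0.25 to 0.027), ACACA (−0.095 to 0.012) and FADS2 (−0.16 to 0.30). In all fits that leave out 1 library the other factor is dropped, so the compared groups differ in that factor too. A sign that turned there cannot be told apart from the effect of the other factor. The causes were not tested. Depth limits CYP51A1, which has at most 89 counts, as does the same-strand overlap of 79.4% of its exonic bases.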
